A study of Mus musculus with 4 samples.

Results

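Chemokines and their receptors were examined in mouse liver cell lines as 1 gene family. The members are all genes on the array whose single symbol has the form of a chemokine ligand (Ccl, Cxcl, Cx3cl or Xcl and a number) or of a receptor (Ccr, Cxcr, Cx3cr, Xcr or Ackr and a number). This gave 52 genes, 32 ligands and 20 receptors, on 84 probe sets, out of 18193 named genes. A probe set is the group of probes that reads 1 transcript. Where several read a gene, the one of highest mean stands for it.

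The data were 4 Affymetrix Mouse430_2 arrays, 2 of each group. MMH-D3, the differentiated hepatocytic line, was on both arrays of its group. The other group, resident liver stem cells (RLSC), consisted of 2 lines with 1 array each, derived from embryonic liver at 14 days post coitum and selected for palmate colonies. MetE14/3 carries the cyto-Met transgene, a truncated Met receptor, and is descended from clone B2. WTE14/1 came from a wild-type embryo (its source name reads WT E14/3, and the title is used here). MMH-D3 belongs to the MMH lines, which were likewise made from livers with truncated Met, so that WTE14/1 is the line without it. All cultures began on collagen-I in RPMI with serum, epidermal growth factor, insulin-like growth factor II and insulin. The labels give a later expansion in DMEM with serum for about 50 generations for the RLSC lines, and no such step for MMH-D3. The labels name no separate cultures for the MMH-D3 arrays. A p-value here therefore measures the spread between these 4 samples alone, which may be technical for MMH-D3 and is a spread between 2 lines for RLSC.

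Chemokines are small secreted proteins that direct cell movement through G protein-coupled receptors, and are classed by the spacing of their first cysteines as CC, CXC, CX3C and XC. Inflammatory members are induced through NF-kappaB and attract leukocytes, while homeostatic members such as Cxcl12 position stem and progenitor cells, in fetal liver those of blood. Atypical receptors (Ackr) bind chemokines without G protein signalling and remove or redistribute them. In liver, hepatocytes, bile duct cells, stellate cells, endothelium and macrophages all make members of the family.

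Signals are the deposited array intensities, scaled so that each array's mean without its lowest and highest 2% was 200.001. The array medians were 16.9 and 23.1 for MMH-D3, 19.6 for MetE14/3 and 28.02 for WTE14/1. Where 2 MMH-D3 signals are given, array 1 comes first. The 24 poly-A control probe sets read a median of 10.6-fold higher on MMH-D3 array 1 and MetE14/3 (batch A) than on MMH-D3 array 2 and WTE14/1 (batch B), and each batch held 1 array of each group. The 18 hybridization control probe sets showed no such split, with a median ratio of A over B of 0.878 (0.728 to 1.05). The labels name no batch, and the word stands here only for this split of the poly-A controls. The defining hepatocyte marker list was lower in RLSC at 2 of 7 tested genes, Apob and Afp, and higher at none. Over all genes tested, 0.516% were lower and 0.397% higher. The summed signal of the list was 401 in MetE14/3 and 228 in WTE14/1 beside 5493 and 9910 for MMH-D3. The MMH-D3 arrays were far apart at some of its genes, such as Apoa1 (20.9 and 2002) and Alb (44.7 and 440). They were closer at others, such as Apob (2879 and 4647).

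At 11 of the 52 genes a signal of 100 was reached on at least 1 array. They were the CC ligands Ccl2, Ccl9 and Ccl20, the CXC ligands Cxcl1, Cxcl5, Cxcl12, Cxcl16 and Cxcl17, the CX3C ligand Cx3cl1 and the atypical receptors Ackr3 and Ackr4. None of the 16 signalling receptors did so, and their highest signal was 40.05, for Ccr2 in WTE14/1. In 41 genes no array exceeded 89.6, the signal of Ccl25 in WTE14/1.

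Promoter windows are shown for the members the results turn on. Ccl9 passed the test between groups, and Cxcl12, Cx3cl1 and Ackr3 have the highest mean signal of the CXC ligands, the CX3C and XC ligands and the receptors. Cxcl1 and Ccl20, chosen after their values were seen, are ligands read higher in MMH-D3 by the mean. Each window is the RefSeq sequence of build GRCm38.p6 from 250 bases before to 50 bases from the annotated start, 300 bases in all. Capitals mark matches on either strand to the kappaB consensus, the 10-base site bound by NF-kappaB, and to the TATA box TATAAA.
Ccl9, chr11:83578587-83578886, minus strand: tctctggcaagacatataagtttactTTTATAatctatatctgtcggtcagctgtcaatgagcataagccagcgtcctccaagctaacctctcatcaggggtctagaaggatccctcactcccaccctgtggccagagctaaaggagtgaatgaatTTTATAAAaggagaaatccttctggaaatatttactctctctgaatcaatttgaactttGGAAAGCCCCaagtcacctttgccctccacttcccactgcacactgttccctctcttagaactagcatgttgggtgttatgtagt
Cxcl12, chr6:117168285-117168584, plus strand: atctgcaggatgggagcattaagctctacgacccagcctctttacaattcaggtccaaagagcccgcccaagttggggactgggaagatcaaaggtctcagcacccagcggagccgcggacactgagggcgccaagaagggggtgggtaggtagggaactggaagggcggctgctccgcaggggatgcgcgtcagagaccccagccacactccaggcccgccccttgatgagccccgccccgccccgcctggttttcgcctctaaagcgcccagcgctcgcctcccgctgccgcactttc
Cx3cl1, chr8:94771930-94772229, plus strand: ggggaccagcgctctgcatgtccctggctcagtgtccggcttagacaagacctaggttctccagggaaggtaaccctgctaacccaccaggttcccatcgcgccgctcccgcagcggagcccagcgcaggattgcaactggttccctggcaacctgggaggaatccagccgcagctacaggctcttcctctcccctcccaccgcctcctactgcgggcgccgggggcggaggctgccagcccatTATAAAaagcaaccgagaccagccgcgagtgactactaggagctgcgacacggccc
Ackr3, chr1:90203730-90204029, plus strand: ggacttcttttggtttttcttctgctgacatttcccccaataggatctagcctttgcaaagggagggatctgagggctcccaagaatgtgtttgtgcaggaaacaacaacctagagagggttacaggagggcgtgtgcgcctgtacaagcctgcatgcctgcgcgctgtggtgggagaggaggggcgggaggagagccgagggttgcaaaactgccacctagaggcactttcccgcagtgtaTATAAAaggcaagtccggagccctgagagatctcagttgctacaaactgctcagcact
Cxcl1, chr5:90890995-90891294, plus strand: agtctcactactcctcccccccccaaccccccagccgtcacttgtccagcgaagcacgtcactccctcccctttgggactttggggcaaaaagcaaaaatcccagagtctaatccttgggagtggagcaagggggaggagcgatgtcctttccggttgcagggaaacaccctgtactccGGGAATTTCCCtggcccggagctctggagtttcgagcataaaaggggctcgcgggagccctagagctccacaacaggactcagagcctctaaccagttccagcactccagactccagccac
Ccl20, chr1:83116516-83116815, plus strand: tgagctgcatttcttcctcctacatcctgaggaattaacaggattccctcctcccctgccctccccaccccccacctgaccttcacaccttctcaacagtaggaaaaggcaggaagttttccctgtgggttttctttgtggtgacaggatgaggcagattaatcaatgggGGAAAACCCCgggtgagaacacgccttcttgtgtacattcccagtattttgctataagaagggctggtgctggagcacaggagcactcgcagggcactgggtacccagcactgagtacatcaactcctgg

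A kappaB match lay 71 bases upstream of the Cxcl1 start (GGGAATTTCC, also matching on the other strand 1 base on), 80 bases upstream of the Ccl20 start and 35 bases upstream of the Ccl9 start. The same 10 letters lay 97 bases upstream in Cxcl2 and 73 bases upstream in Cxcl3, the chromosome 5 neighbours of Cxcl1. Of 39 members with a window, 9 held a match (23.1%), against 4.51% of all 32851 windows. The others were Cxcl10, Ackr2, Ccr3 and Ccr6. TATAAA on either strand was in the windows of 13 of 39 members (33.3%) against 13.6% of all windows. For both motifs a member counts by gene, with a match in any of its windows, while the background counts by window. The shares are thus not in the same unit. No match to either motif was in these letters of the Cxcl12 window. Matches are a description of the letters only.

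RLSC was compared with MMH-D3 to ask which members distinguish the stem cell lines from the hepatocytic line. Ccl9 was higher in RLSC, about 15.3-fold, and was the only member of 25 tested that passed. Cxcl5, Ccl20 and Cxcl16 read higher in MMH-D3 by the mean, without passing. Their log2 differences, RLSC minus MMH-D3, were -4.38, -3.63 and -2.40. That of Ccl20 rested mostly on MMH-D3 array 2 (853), as array 1 (47.3) was close to MetE14/3 (42.0). Cxcl12 was at a high signal in WTE14/1 alone, and Ccl2 reached 100 in MetE14/3 alone.

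The test was limma on log2(signal + 4), quantile normalized, at an adjusted p under 0.05 over 12598 genes. Of the members, 25 passed the filter on low signals (a mean of about 11.7) and were tested. Some, such as Cxcl12, entered through 1 array alone. Of the 25, 1 was higher in RLSC, against 0.397% of all genes tested, and 0 were lower, against 0.516%. At an unadjusted limma p under 0.05 there were 4 of 25, namely Ccl9, Cxcl5, Ccl20 and Cxcl16, against 12.3% of all genes. The median difference (RLSC minus MMH-D3, always on the log2 scale) was -0.12 over the tested members and 0.031 over all genes. On the deposited scale without quantile normalization these medians were 0.060 and 0.102. The members' median thus lay below that of all genes on both scales, while its sign was not the same.

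The CC ligand Ccl9 is a chemoattractant of myeloid cells that acts through Ccr1. Signals were 1239 (MetE14/3) and 943 (WTE14/1) in RLSC, while MMH-D3 gave 88.1 and 46.1. Both RLSC lines lay above both MMH-D3 arrays, with means of 1091 ± 209 and 67.1 ± 29.7 (SD, n = 2 each). The difference was 3.94 (SE 0.54, limma adjusted p = 0.0400). The second Ccl9 probe set read 833 and 469 in the RLSC lines and 45.9 and 17.4 in MMH-D3, in the same direction (4.14, SE 0.67). Within batches A and B the Ccl9 difference was 3.52 and 4.36. The sign held in all 14 alternatives, but the call held in 6 of the 12 that gave a test, whose adjusted p ran from 0.0256 to 0.273. It was lost when any 1 array was left out (adjusted p = 0.0824 without MMH-D3 array 1, 0.273 without array 2, 0.0847 without MetE14/3 and 0.0969 without WTE14/1).

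Macrophages are a textbook source of Ccl9. Of 13 macrophage and leukocyte markers, 4 passed the filter, and 0 of these were called in either direction. Their summed signal was 157 and 251 for MMH-D3, and the RLSC lines lay inside that range (181 for MetE14/3, 245 for WTE14/1). The highest of them, the macrophage growth factor receptor Csf1r, read 44.0 (MetE14/3) and 79.0 (WTE14/1) beside 37.3 and 67.0 for MMH-D3. Laptm5, a lysosomal gene of blood cells, was next by mean signal, with 25.8 and 47.0 beside 19.5 and 54.2. The pan-leukocyte gene Ptprc read at most 13.7, and 8 of the 13 markers stayed under 20 on every array. The part of such cells in the Ccl9 signal was not tested. The Ccr1 receptor of Ccl9 read at most 14.9.

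**Figure D1:**
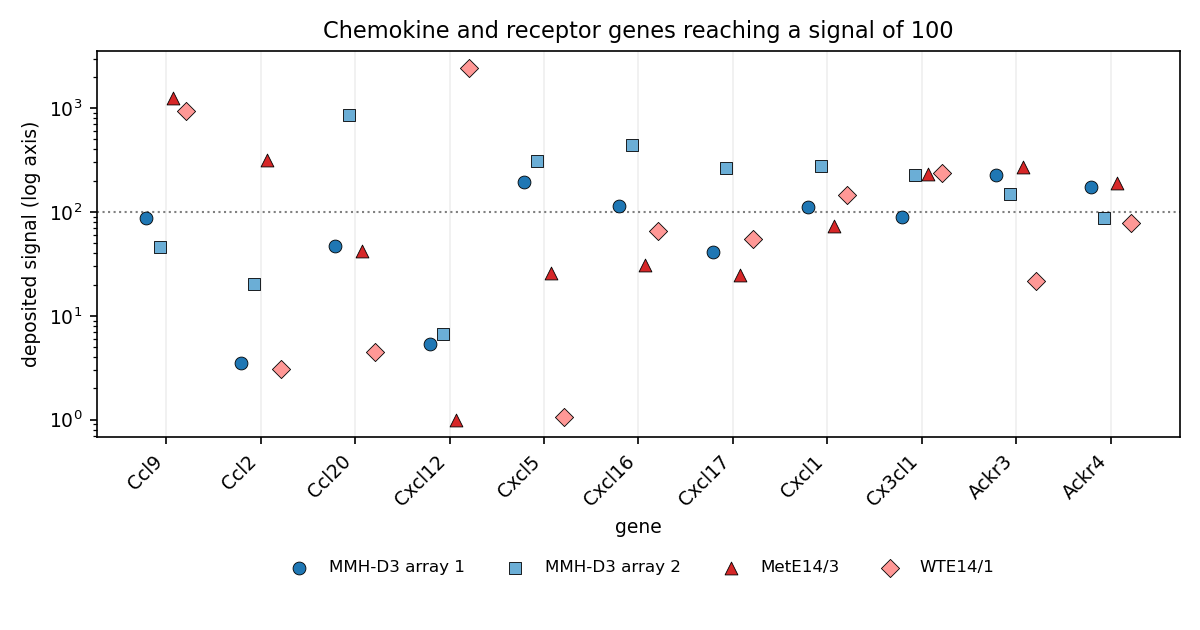
Deposited signal (log axis) of the 11 members that reach 100 on at least 1 array, with 1 point for each of the 4 arrays and a dotted line at 100. Both RLSC points stand above both MMH-D3 points at Ccl9, only WTE14/1 is high at Cxcl12 (2417), and both RLSC points are below both MMH-D3 points at Cxcl5, Ccl20 and Cxcl16.

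Ccl9 lies among other CC genes on chromosome 11, between Ccl5 and Ccl6, with Ccl3 and Ccl4 next. The highest signal of these neighbours on any array was 2.25 for Ccl5, 51.3 for Ccl6, 5.46 for Ccl3 and 65.6 for Ccl4. Ccl9 was thus the only gene of this run to reach 100 on any array. Ccl6 and Ccl4 were tested and did not pass, with differences of -0.053 (SE 0.60) and 1.07 (SE 0.89). Ccl3 and Ccl4 overlap in the annotation, so their signals may not be fully separate.

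Another run of CC genes on chromosome 11 holds Ccl2, Ccl7, Ccl11, Ccl12, Ccl8 and Ccl1, in this order. Ccl2, which attracts monocytes through Ccr2, read 316 (MetE14/3) and 3.07 (WTE14/1) in RLSC, while MMH-D3 gave 3.50 and 20.3. The RLSC lines were thus at opposite ends, and the difference, 1.68 (SE 1.73), missed the threshold (limma adjusted p = 0.800). Its sign turned between batches, 5.20 in A and -1.84 in B. Its next neighbour Ccl7 was 11.5 in MetE14/3 and 15.7 in WTE14/1, below 18.4 and 20.2 in MMH-D3. No other gene of this second run exceeded 29.8 on any array, so Ccl2 was the only one of the 6 to reach 100.

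Ccl20, the ligand of Ccr6, draws lymphocytes and dendritic cells to epithelia. It read 42.0 (MetE14/3) and 4.49 (WTE14/1) in RLSC, while MMH-D3 gave 47.3 and 853. Both RLSC lines lay below both MMH-D3 arrays, but MetE14/3 and MMH-D3 array 1 were close and the MMH-D3 arrays stood 13.5-fold apart. The difference, -3.63 (SE 1.39), missed the threshold (limma adjusted p = 0.361), with -0.43 in batch A and -6.84 in batch B alone. Ccr6 read at most 12.6.

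The remaining CC ligands were low. Ccl17 had signals of 45.9 and 31.95 in MetE14/3 and WTE14/1, beside 14.3 and 4.92 for MMH-D3 (difference 1.45, SE 0.70). Ccl28 had 19.7 and 18.7 against 9.50 and 7.33, a difference of 0.73 (SE 0.60). In both genes the RLSC arrays lay above both MMH-D3 arrays on these probe sets, and neither passed. The other Ccl28 probe sets did not pass the filter, and on them the groups overlapped. One read 1.20 and 11.9 in MetE14/3 and WTE14/1 against 19.0 and 5.56, and the other 5.00 and 13.6 against 6.80 and 10.5. Of the 10 CC ligands tested, 6 had a positive and 4 a negative difference, or 8 and 2 on the deposited scale.

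Of the 8 CXC ligands tested, 7 had a negative difference, on the quantile normalized and on the deposited scale alike, and Cxcl12 a positive one. None passed. Their median difference was -1.17. On the quantile normalized scale, 6044 of all 12598 genes tested had a negative difference. A second Cxcl13 probe set had the opposite sign (0.064, SE 0.53). Cxcl10, Cxcl11 and Cxcl13 were low, at or under 27.9, 26.1 and 32.2 on every array. Cxcl1 and Cxcl5 are ligands of Cxcr2, the main neutrophil receptor.

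Cxcl5 read 25.8 (MetE14/3) and 1.07 (WTE14/1) in RLSC, while MMH-D3 gave 192 and 310. The groups did not overlap, and their means were 13.4 ± 17.5 and 251 ± 83.2 (SD, n = 2 each). The difference was -4.38 (SE 0.92, limma adjusted p = 0.114). Batches A and B taken apart gave -2.77 and -5.99. It passed in 1 of 12 alternatives with a test, the one without MetE14/3 (-5.72, limma adjusted p = 0.0235), where the range over alternatives was 0.0235 to 0.545.

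Cxcl1 stands a few genes from Cxcl5 on chromosome 5, with Ppbp, Pf4, Cxcl3 and Cxcl15 between them and Cxcl2 after it. Ppbp and Pf4 lie outside the symbol pattern. Cxcl1 read 72.5 (MetE14/3) and 147 (WTE14/1) in RLSC, while MMH-D3 gave 112 and 274. MetE14/3 was the lowest and MMH-D3 array 2 the highest, while WTE14/1 lay between the MMH-D3 arrays, so the groups overlapped on this probe set. The difference was -0.91 (SE 0.58). On the other 2 Cxcl1 probe sets both RLSC arrays lay below both MMH-D3 arrays. One read 32.8 and 147 in the RLSC lines and 150.1 and 237 in MMH-D3 (-1.47, SE 0.69), and the other 44.6 and 104 beside 178 and 199 (-1.53, SE 0.51). MetE14/3 was the lowest array on all 3. Cxcl2 and Cxcl3, also Cxcr2 ligands, stayed at or under 14.7 and 19.8. Cxcr2 itself read at most 4.27.

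Cxcl16 is made as a membrane-bound protein and is the ligand of Cxcr6. It read 31.1 (MetE14/3) and 65.8 (WTE14/1) in RLSC, while MMH-D3 gave 115 and 440. The RLSC arrays lay below both MMH-D3 arrays, and the difference, -2.40 (SE 0.68), missed the threshold (limma adjusted p = 0.214). Batches A and B taken apart gave -1.89 and -2.91. The second probe set read 0.700 and 1.05 in the RLSC lines and 51.2 and 223 in MMH-D3. Fitted over all probe sets, its difference of -4.67 (SE 0.68) had a limma adjusted p of 0.0538. Cxcl16 overlaps Zmynd15 in the annotation.

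Cxcl17, a mucosal chemokine, read 24.9 (MetE14/3) and 54.4 (WTE14/1) in RLSC, while MMH-D3 gave 40.8 and 263. On the deposited scale WTE14/1 lay between the MMH-D3 arrays, so the groups overlapped there. The difference, -1.66 (SE 0.81), missed the threshold (limma adjusted p = 0.489). Cxcl10, an interferon-induced attractant of T cells, stayed at or under 27.9 on every array. Its values were 3.20 and 11.7 in MetE14/3 and WTE14/1 against 15.7 and 27.9, with a difference of -1.44 (SE 0.62).

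The CXC ligand Cxcl12 binds Cxcr4 and Ackr3. Its signal was 2417 in WTE14/1, and 1.00, 5.30 and 6.64 in MetE14/3 and on MMH-D3 arrays 1 and 2. All 3 probe sets showed this pattern, with 1265 and 46.4 in WTE14/1 on the other 2 and at most 5.80 elsewhere. The RLSC lines thus lay at both ends, and the group difference, 3.43 (SE 2.59), missed the threshold (limma adjusted p = 0.699). Batches A and B taken apart gave -1.08 and 7.94. With MetE14/3 left out, WTE14/1 against MMH-D3 gave 7.90. There WTE14/1 has 1 array, and its spread is assumed to be that of the MMH-D3 pair. Both signals of that pair were under the filter level of about 11.7. Cxcl12 passed the filter through WTE14/1 alone, the array compared, so this difference has no valid test.

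Stromal cells are the known main makers of Cxcl12, and some stellate and fibroblast markers were also highest in WTE14/1. The summed signal of the 12 listed markers was 9316 in WTE14/1, 1967 in MetE14/3, and 146 and 225 in MMH-D3. Of these markers, 1 of 6 tested was higher in RLSC and none lower. Most of the sum was the smooth muscle actin gene Acta2, at 8962 in WTE14/1 and 1638 in MetE14/3. Col3a1, a fibrillar collagen gene, read 120 in WTE14/1 and at most 15.1 on the other arrays. Pdgfrb, the receptor of pericytes and stellate cells, ran the other way, at 65.8 in WTE14/1 and 248 in MetE14/3. The stellate gene Lrat read at most 12.9. The fibroblast genes Dcn and Lum were highest on MMH-D3 array 2, at 17.3 and 31.4, beside 4.01 and 7.02 in WTE14/1. The part of such cells in the Cxcl12 signal was not tested, and in bulk RNA more cells of a type and more RNA per cell cannot be told apart.

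Cx3cl1, a membrane-bound adhesive chemokine, was at a like signal on 3 arrays, 231 in MetE14/3, 235 in WTE14/1 and 229 on MMH-D3 array 2. MMH-D3 array 1 read 89.8. The difference, 0.54 (SE 0.52), missed the threshold (limma adjusted p = 0.785), with 1.08 in batch A and -0.0071 in batch B alone. A second Cx3cl1 probe set read 87.4 and 86.4 in the RLSC lines and 51.5 and 100 in MMH-D3 (0.031, SE 0.46). The remaining Cx3cl1 probe sets stayed at or under 17.9 and 2.30. The Cx3cl1 receptor Cx3cr1 read at most 18.0. Xcl1 and its receptor Xcr1 read at most 19.7 and 20.6.

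**Figure D2:**
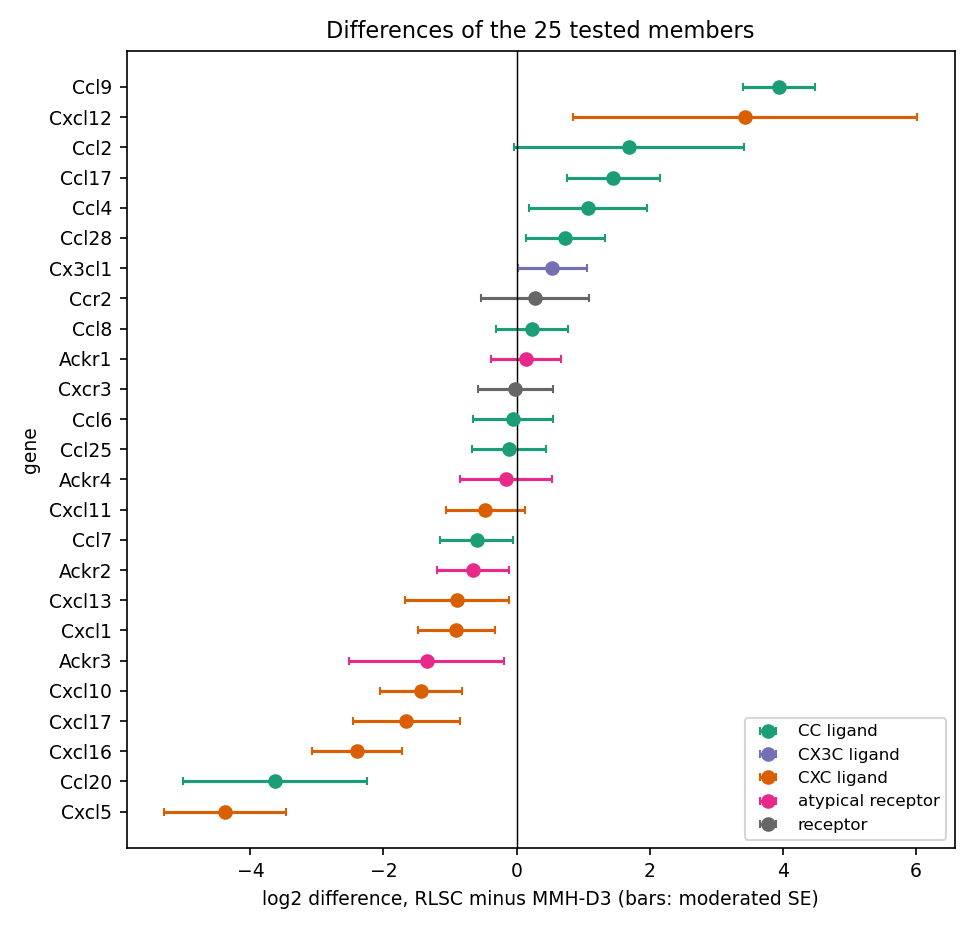
Differences of the 25 tested members in log2 units, RLSC minus MMH-D3, with moderated standard errors as bars and colours by class. Ccl9 stands at 3.94 with a narrow bar, Cxcl12 at 3.43 with a bar several times as wide, and 7 of the 8 CXC ligands lie below 0.

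Signalling receptors were low as a class. Of the 16 signalling receptors, 2 passed the filter, Ccr2 and Cxcr3, and neither was called. Ccr2, the receptor of Ccl2, had a difference of 0.28 (SE 0.82), with 40.05 in WTE14/1 and 6.40 in MetE14/3. Cxcr3 read 15.8 (MetE14/3) and 34.8 (WTE14/1) in RLSC, while MMH-D3 gave 19.6 and 20.6. Cxcr4, the signalling receptor of Cxcl12, read 8.80 in MetE14/3, 10.8 in WTE14/1, and 5.30 and 1.76 in MMH-D3. Detection calls were not used here, so such signals are not shown to be above background.

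The atypical receptor Ackr3 scavenges Cxcl12. It read 271 (MetE14/3) and 21.5 (WTE14/1) in RLSC, while MMH-D3 gave 227 and 148. WTE14/1 was thus the lowest array for Ackr3 and the highest for Cxcl12, while the other 3 arrays ran from 148 to 271 for Ackr3 and from 1.00 to 6.64 for Cxcl12. The group difference, -1.35 (SE 1.17), missed the threshold (limma adjusted p = 0.749), with 0.12 in batch A and -2.82 in batch B alone. Ackr3 has 1 probe set, of a type whose probes may also match other transcripts.

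Ackr4, which takes up Ccl19, Ccl21 and Ccl25, read 192 (MetE14/3) and 78.5 (WTE14/1) in RLSC, while MMH-D3 gave 174 and 87.5. The arrays followed the batches, both of batch A above both of batch B, and the group difference was -0.16 (SE 0.69). A second Ackr4 probe set also followed the batches, with 173 and 80.2 in the RLSC lines and 117 and 85.5 in MMH-D3. Its difference was 0.046 (SE 0.60). Ackr4 overlaps Acad11 in the annotation, and a further Ackr4 probe set read at most 7.60, so the signal may not be of Ackr4 alone. Ackr1 and Ackr2, the other atypical receptors, read at most 39.8 and 35.5.

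Between groups, 3 of 25 tested members had both RLSC arrays above both MMH-D3 arrays after normalization, Ccl9, Ccl17 and Ccl28, against 20.8% of all genes. Below both lay 7, against 21.3%. They were Cxcl5, Cxcl10, Cxcl16, Cxcl17, Ccl7, Ccl20 and Ackr2. On the deposited signals the counts were 6 above and 5 below, against 23.1% and 17.2%. These shares were within a few genes of the background in both directions.

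MetE14/3 and WTE14/1 were then set side by side, with 1 array each, to describe how these RLSC arrays differ within the family. MetE14/3 lay in batch A and WTE14/1 in batch B, and only MetE14/3 carries cyto-Met. Line, batch and transgene thus cannot be told apart in these differences. Log2 differences are MetE14/3 minus WTE14/1. Of the 25 tested members, 4 were at least 4-fold higher in MetE14/3, against 2.79% of all genes, and 1 at least 4-fold higher in WTE14/1, against 2.33%. The first were Ccl2 (5.63), Ackr3 (3.72), Cxcl5 (2.71) and Ccl20 (2.65). The last was Cxcl12 (-8.96), the largest difference towards WTE14/1 among the 12598 genes. The tested members include genes that passed the filter through 1 line, so this share has no test. A fit of 3 lines, with the spread of the MMH-D3 arrays standing for all, called 0 genes (the lowest limma adjusted p was 0.0957), and 586 had an unadjusted p under 0.05. Cxcl12 had an adjusted p of 0.0957 in that limma fit.

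The MMH-D3 arrays, of 1 line, were at least 4-fold apart at 3 of 25 members, against 5.96% of all genes. These were Ccl20 (3.76, array 2 minus array 1), Ccl4 (2.39) and Cxcl17 (2.22), and all 3 were higher on array 2, against 2.94% of all genes. The arrays differed by 0.51 at Cxcl5. At Cxcl12 they differed by -0.068, but both signals there were low (5.30 and 6.64), under the filter level of about 11.7. Array 1 lay in batch A and array 2 in batch B, so sample and batch cannot be told apart between them. Ccl20 was the only member at least 4-fold apart both between the RLSC lines and between the MMH-D3 arrays.

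**Figure D3:**
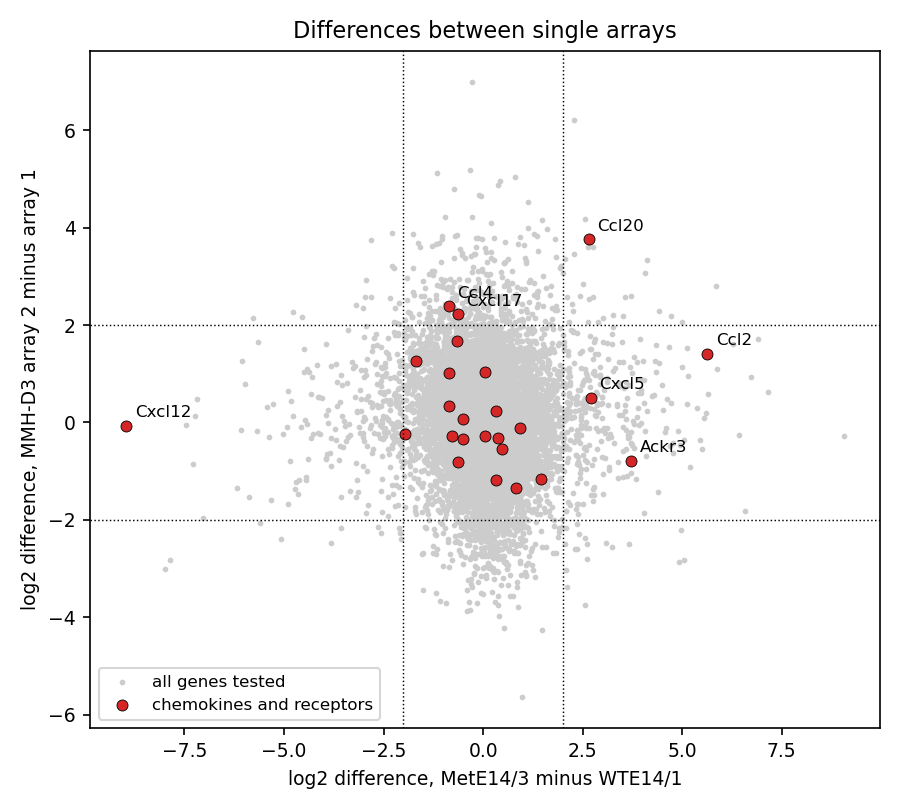
Log2 difference between the RLSC lines (horizontal, MetE14/3 minus WTE14/1) against that between the MMH-D3 arrays (vertical, array 2 minus array 1), in grey for all 12598 genes and in red for the 25 tested members, with dotted lines at 4-fold. Cxcl12, Ccl2, Ackr3 and Cxcl5 are far from 0 only on the horizontal axis, and Ccl4 and Cxcl17 only on the vertical one.

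Genes upstream and downstream of chemokines were read from lists of receptors of inducing cytokines, NF-kappaB factors, receptor signalling genes and genes that bind or cut chemokines. Over all genes, 0.913% passed in either direction. Of 17 inducing receptors tested, 0 passed in either direction, with a median difference of -0.25. The interferon-gamma receptor Ifngr1 read 353 (MetE14/3) and 320 (WTE14/1) in RLSC, while MMH-D3 gave 697 and 1828 (-1.78, SE 0.55), and the tumour necrosis factor receptor Tnfrsf1a differed by -0.46 (SE 0.41).

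Of 18 NF-kappaB factors and regulators, 0 passed, and the median was -0.32. The inhibitor Nfkbia, itself an NF-kappaB target, read 2339 in MetE14/3 and 1199 in WTE14/1 against 1047 and 989 (0.78, SE 0.41), and the kinase Tbk1 differed by -0.082 (SE 0.34). Bcl3, a nuclear cofactor of NF-kappaB named after its values were seen, read 49.1 and 34.4 in the RLSC lines and 318 and 377 in MMH-D3. Its difference of -3.14 (SE 0.50) was just outside the threshold (limma adjusted p = 0.0573).

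Of 20 receptor signalling genes, 0 passed (median 0.18), with Rac1 at 0.047 (SE 0.25) and the G protein subunit Gnb1 at 0.42 (SE 0.29). Of 21 glycosaminoglycan and protease genes, 0 passed (median 0.62). The proteoglycan Sdc1, a docking site of chemokines, differed by -1.05 (SE 0.38) and the protease Adam10, which sheds Cxcl16 and Cx3cl1, by 0.29 (SE 0.41). At an unadjusted limma p under 0.05 there were 10 of 76 genes over these 4 lists, against 12.3% of all genes. Of 14 chemokine-like genes outside the symbol pattern, 1 was lower and 0 higher. It was Cmtm8, a membrane protein of the chemokine-like factor family, at 27.7 and 16.98 in RLSC and 243 and 440 in MMH-D3 (-3.83, SE 0.57, limma adjusted p = 0.0497).

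Other marker lists gave the following. Endothelial markers read a summed 169 and 223 in the RLSC lines and 171 and 244 in MMH-D3, with 0 of 5 tested called, Egfl7 the highest (at most 95.8) and Pecam1 at most 5.07. Mesothelial markers were lower in RLSC at 3 of 6 tested genes, with summed signals of 3048 and 2164 against 13775 and 20916. The 3 were Upk1b (-8.17), Bnc1 (-4.85) and Wt1 (-4.30). Cholangiocyte markers were lower at 1 of 6, with 9399 and 4449 against 20822 and 27804. The one that passed was Tspan8 (-4.91), which with the keratin gene Krt19 made up most of the sum. The duct transcription factor Sox9 had the opposite sign, with 277 and 183 in RLSC beside 38.3 and 1.33 (2.67, SE 0.63), and did not pass. The summed signals of both lists were thus highest in the MMH-D3 arrays, as was that of the hepatocyte list (5493 and 9910). Cxcl5, Ccl20 and Cxcl16 also read highest there, and the part of any of these lists in their signals was not tested.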

How the data were processed

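RNA of 4 samples, 2 in each group, was measured on Affymetrix arrays from 5 μg of total RNA. The values are the intensity signals of 45101 probe sets deposited by the authors, made with GCOS, per the submitters' processing notes. The software's version and settings: not given in the sources used here. In every array the mean without the lowest and highest 2% was 200.001. The depth is that of 1 array a sample, and the number of arrays limits the precision.

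Names came from the platform annotation (34958 probe sets with 1 symbol, 34754 matched by Entrez identifier to RefSeq of GRCm38.p6, 0 symbols changed). Array medians differed by 0.62 on the log2 scale, so log2(signal + 4) was quantile normalized. Without 64 controls, probe sets above the 40th percentile of the mean were kept, and a gene was given by its highest one. limma 3.58.1 in R 4.3.3 (eBayes with an intensity trend, two-sided, 2 residual degrees of freedom) compared the groups over 12598 genes, with Benjamini-Hochberg adjustment. The script was tested on simulated data. Folds are on the log2(signal + 4) scale and understate low genes.

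Members and lists were chosen with earlier results of these data known. Members that reach a signal of 100 are given in full, and from each list of pathway genes up to 3 that passed or the 2 with the highest mean. Cell type markers named with values were chosen after their values were seen. Alternatives were other pseudocounts (1 and 16), no quantile normalization, other filters, other probe set rules, no trend, batch as a block or apart, and leaving out each array. The fit between the RLSC lines was added after the data were seen. Promoter windows and gene order came from RefSeq.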

Additional observations from a re-analysis of the deposited data

How the results depend on the processing

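Of the 11 members given in full, Ccl9, Ccl20, Cxcl1, Cxcl5, Cxcl16 and Cxcl17 kept their direction in all 14 alternatives. The sign turned within batch B for Ccl2 (-1.84) and Cx3cl1 (-0.0071), within batch A for Cxcl12 (-1.08) and Ackr3 (0.12), without WTE14/1 for Ackr3 (0.52) and Ackr4 (0.58), and without MMH-D3 array 1 for Ackr4 (0.41). With arrays left out, Ackr3 ran from -3.16 to 0.52 and Ackr4 from -0.89 to 0.58. The Ccl9 call was lost without a filter (limma adjusted p = 0.0652) and without an intensity trend (limma adjusted p = 0.0576), so the count of members higher in RLSC was 0 in both. It ran from 0 to 1 when arrays were left out, where the 1 was Cxcl12, and the count lower ran from 0 to 1. Over all genes, 50 were higher and 65 lower. The counts were 4 and 5 without a filter, where more genes were tested, 83 and 96 with every probe set on its own, and 71 and 101 with batch as a block. With arrays left out the higher count ran from 0 to 45 and the lower from 0 to 145. The members' median of -0.12 was 0.060 without quantile normalization, where that of all genes moved from 0.031 to 0.102, -1.13 at the 60th percentile filter, where 10 members were tested, -0.43 within batch A, and -0.53 to 0.049 with arrays left out. The cause of these shifts was not tested. The fit with batch as a block is also the paired fit, with pairs from the poly-A controls and not from the labels, which number the MMH-D3 arrays but not the RLSC lines. In it Ccl9 (limma adjusted p = 0.0282) was still the only member called. Counts within a batch were not run, as each batch holds 1 array a group. With 1 array per RLSC line, and no detection calls used, signals near the filter level cannot be told from background.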

Other observations

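Ccl27a, a CC ligand of epithelia whose symbol ends in a letter and so lies outside the family as selected here, read 105 in WTE14/1, 11.2 in MetE14/3, and 9.80 and 26.8 on the MMH-D3 arrays. Its group difference was 0.87 (SE 0.92, limma adjusted p = 0.809). WTE14/1 was the highest array, as for Cxcl12. The chemokine-like factor family member Cmtm3 gave 649 (MetE14/3) and 848 (WTE14/1), while MMH-D3 gave 276 and 169, without overlap; the difference, 1.75 (SE 0.48), missed the threshold (limma adjusted p = 0.199). Mif, a cytokine that can act on Cxcr2 and Cxcr4, was at a like signal in both groups, 6237 and 7590 in the RLSC lines and 7158 and 5350 in MMH-D3. Both genes were chosen after their values were seen, as was Ccl27a.

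The submitted values of MetE14/3 and MMH-D3 array 1 carry 1 decimal throughout (100% of values), against 1.41% and 1.32% of values in WTE14/1 and MMH-D3 array 2. This is the same split of the arrays as in the poly-A controls.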
